A study of Homo sapiens with 4 samples.

Results

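The AP-1 family genes described here are FOS, FOSB, FOSL1 and FOSL2, JUN, JUNB and JUND, and the related genes ATF3, BATF3 and MAFF. The 10 genes were followed through their open chromatin: every peak that overlapped a member's GRCh38 gene span or the 100 kb on either side was taken, in each of 4 ATAC-seq peak lists. Peaks of the 4 lists that overlapped by at least 1 bp were merged into regions, and 213 of the 138467 merged regions of the series lay near a member. ATAC-seq marks open DNA by the insertion of sequencing adapters with a transposase.

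The cells were 786-O, a human renal carcinoma line. The 2 WT control libraries came from negative control cells of genotype WT, a Cas9-expressing clone made with LentiCas9-Blast virus. The 2 DEK KO libraries came from Cas9-expressing cells infected with LentiGuide-Puro virus carrying DEK guide RNAs and sorted as single cells, so that both groups carry Cas9. DEK is a DNA-binding protein of chromatin with histone chaperone activity, and the comparison asks where open regions differ without it. Nothing in the labels tells if both libraries of 1 genotype stem from separate clones or cultures. The peak names of the DEK KO lists carry codes that differ between the lists and are not explained. The p-values therefore refer only to these 4 libraries, and the differences between libraries of 1 genotype may be technical. A peak list shows neither DEK transcript nor protein, so it does not check the knockout.

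AP-1 is a family of transcription factors that bind DNA as pairs held together by a leucine zipper next to a basic stretch that contacts the DNA. FOS proteins need a JUN partner, whereas JUN proteins can also pair with each other. FOS, FOSB, JUN, JUNB and ATF3 are known as immediate early genes, which growth factors and stress switch on through MAP kinases without new protein synthesis. AP-1 sites are abundant in distal open chromatin of many epithelial and mesenchymal cells.

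The DEK KO lists were longer, with 102760 and 99508 peaks in replicates 1 and 2 against 89563 and 90409 in the WT controls, and their median peak widths were 594 and 550 bp against 610 and 629 bp. Each peak was therefore described by its percentile within its own list, ranked by the deposited −log10 p, where 100 is the strongest. A percentile orders peaks within a list and is not a measure of change. Read depth is not held in the lists. At listed gene starts, renal and mesenchymal markers PAX8, PAX2, EPAS1 and VIM had regions in all 4 lists, and CA9 and KRT8 had none. Of markers of other cell types with a listed start, 0 of 2 blood and 0 of 2 endothelial genes had a start region in all 4 lists, against 2 of 3 neuronal genes (SYT1 and GAD1) and 1 of 3 hepatocyte genes (SERPINA1).

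The start of a member is the listed RefSeq transcription start on GRCh38.p14, with strand. A promoter here runs from 250 bases before the start to 30 bases from it on. The RefSeq table held starts of 8 of the 10 members, 10 starts in all because ATF3 and MAFF had 2 each; FOSL1 and BATF3 had no entry. These motifs were marked in capitals on both strands: the AP-1 site TGANTCA, the cyclic AMP response element TGACGTCA, the letters TGACATCA and TTACCTCA known from the JUN promoter, the GC box GGGCGG, the CCAAT box, the TATA box TATAAA, the ETS letters GGAAGT and the CArG box of serum response factor. None of the capitalised matches overlapped another. The promoters below are those on which the results turn: the genotypes stand apart at FOS in rank and at MAFF in width, JUN and FOSL2 hold AP-1-like letters under strong regions, JUND holds a CRE under a region of middle rank, and ATF3 has no peak at this start.
FOS (chr14:75278578-75278857, plus strand): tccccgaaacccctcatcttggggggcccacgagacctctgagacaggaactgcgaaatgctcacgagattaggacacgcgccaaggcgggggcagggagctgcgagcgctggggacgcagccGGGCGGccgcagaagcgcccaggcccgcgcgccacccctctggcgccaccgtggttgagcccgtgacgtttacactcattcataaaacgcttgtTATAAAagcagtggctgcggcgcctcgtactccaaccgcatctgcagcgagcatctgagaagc
MAFF (chr22:38201744-38202023, plus strand): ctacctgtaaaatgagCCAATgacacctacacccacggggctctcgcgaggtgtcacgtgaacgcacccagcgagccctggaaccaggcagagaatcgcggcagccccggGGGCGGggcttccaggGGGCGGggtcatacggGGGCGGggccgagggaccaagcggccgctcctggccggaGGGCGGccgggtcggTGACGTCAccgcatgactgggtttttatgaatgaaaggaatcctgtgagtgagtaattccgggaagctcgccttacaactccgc
JUN (chr1:58784018-58784297, minus strand): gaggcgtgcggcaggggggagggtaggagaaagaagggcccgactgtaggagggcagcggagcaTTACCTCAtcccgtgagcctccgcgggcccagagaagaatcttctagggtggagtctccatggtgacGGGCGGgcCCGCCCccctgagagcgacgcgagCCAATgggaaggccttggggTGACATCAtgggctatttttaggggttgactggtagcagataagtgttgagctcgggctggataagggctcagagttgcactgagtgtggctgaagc
FOSL2 (chr2:28392608-28392887, plus strand): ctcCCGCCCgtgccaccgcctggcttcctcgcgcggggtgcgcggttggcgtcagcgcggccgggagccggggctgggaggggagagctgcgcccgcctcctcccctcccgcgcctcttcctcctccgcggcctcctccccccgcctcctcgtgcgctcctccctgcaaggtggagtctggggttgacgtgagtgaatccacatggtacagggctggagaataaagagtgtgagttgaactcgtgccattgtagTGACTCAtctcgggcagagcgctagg
JUND (chr19:18281593-18281872, minus strand): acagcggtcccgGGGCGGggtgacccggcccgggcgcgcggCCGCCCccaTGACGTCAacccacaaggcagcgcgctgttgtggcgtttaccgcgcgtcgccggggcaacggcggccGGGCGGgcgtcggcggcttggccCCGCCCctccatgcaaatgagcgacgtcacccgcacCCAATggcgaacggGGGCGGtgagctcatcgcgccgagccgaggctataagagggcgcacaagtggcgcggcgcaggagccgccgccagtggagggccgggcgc
ATF3 (chr1:212565157-212565436, plus strand): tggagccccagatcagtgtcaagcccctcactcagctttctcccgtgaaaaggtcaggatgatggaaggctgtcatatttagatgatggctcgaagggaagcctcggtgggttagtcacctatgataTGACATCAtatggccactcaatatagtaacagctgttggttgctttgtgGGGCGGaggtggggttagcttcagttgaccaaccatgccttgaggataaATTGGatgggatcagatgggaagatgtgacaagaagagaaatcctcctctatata

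Counting the start as 0, JUN held TTACCTCA at -186 to -179 and TGACATCA at -67 to -60, with a CCAAT box at -87 to -83. ATF3 held TGACATCA at -123 to -116 of its upstream start, and FOS held TATAAA at -33 to -28. The CRE lay at -200 to -193 in JUND and at -54 to -47 in MAFF. The AP-1 site occurred in 1 of the 10 member promoters, FOSL2, where it lay 4 to 10 bases downstream of the start, and in 5.93% of 22132 listed promoters of protein-coding genes. The CRE occurred in these 2 member promoters and in 2.26% of all promoters. TGACATCA was in 2 member promoters against 2.11% of all, TTACCTCA in 1 against 0.601%, the GC box in 8 against 55.3%, the CCAAT box in 5 against 34.0%, TATAAA in 4 against 9.27%, and GGAAGT in 2 against 23.0%. No match to the CArG box was found in these windows, and 1.22% of all promoters held one. A match describes letters only.

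A start region, meaning a merged region that overlaps the stretch from 250 bases before to 50 bases after a listed start, was called in all 4 lists at 7 of the 8 members with a listed start. Over protein-coding genes with a listed start this held for 58.8%. The median rank of the 7 regions was lower than that of start regions at large: their median of mean percentiles was 55.3 in the WT controls and 62.6 in DEK KO, against 82.9 and 83.9 over 8770 shared start regions. Their median width was 831 bp in the WT controls and 833 bp in DEK KO, against 1105 and 1075 bp. By library, the mean percentile of the 7 was 54.8 and 52.8 in WT control replicates 1 and 2. It was 56.8 and 68.2 in DEK KO replicates 1 and 2, so the higher DEK KO value lay mostly in replicate 2. Ordered by the mean percentile over the 4 lists, JUN stood first at 87.0, then FOSL2 at 79.8, JUND at 60.4, FOS at 59.9, MAFF at 58.8, JUNB at 33.5 and FOSB at 27.7. Neighbours in this order overlapped in their ranges over the 4 libraries, except for FOSL2 and JUND and for MAFF and JUNB.

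The start regions of 4 members ranked higher in both DEK KO lists than in both WT control lists, namely FOS, FOSB, JUNB and MAFF, and 0 ranked lower. Over all shared start regions 23.0% ranked higher and 16.1% ranked lower. With every list cut to the same length, which was tried after seeing the data for these regions, FOS and FOSB remained of the 4, and the same 2 remained when peaks were ranked by fold enrichment. By fold, however, FOSB lay near the bottom of every list, at percentiles of 1.04 and 1.09 in the WT controls and 7.80 and 1.59 in DEK KO. With −log10 q of at least 5, only FOS remained, of 6 start regions then shared. Without WT control replicate 1 the count was 5, without DEK KO replicate 1 it was 7, and it was 4 without either of the others. Without DEK KO replicate 2, 2 ranked lower. Leaving out a list loosens the definition for all regions alike. Of all shared regions, 42.9% to 45.7% then ranked higher, against 31.1% with 4 lists. The share over all start regions was computed for the 4 full lists only, so the other counts have no matching background. No value of a single gene could pass a test, because an exact permutation of 2 against 2 libraries, two-sided, gives p = 0.333 at the least.

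**Figure D1:**
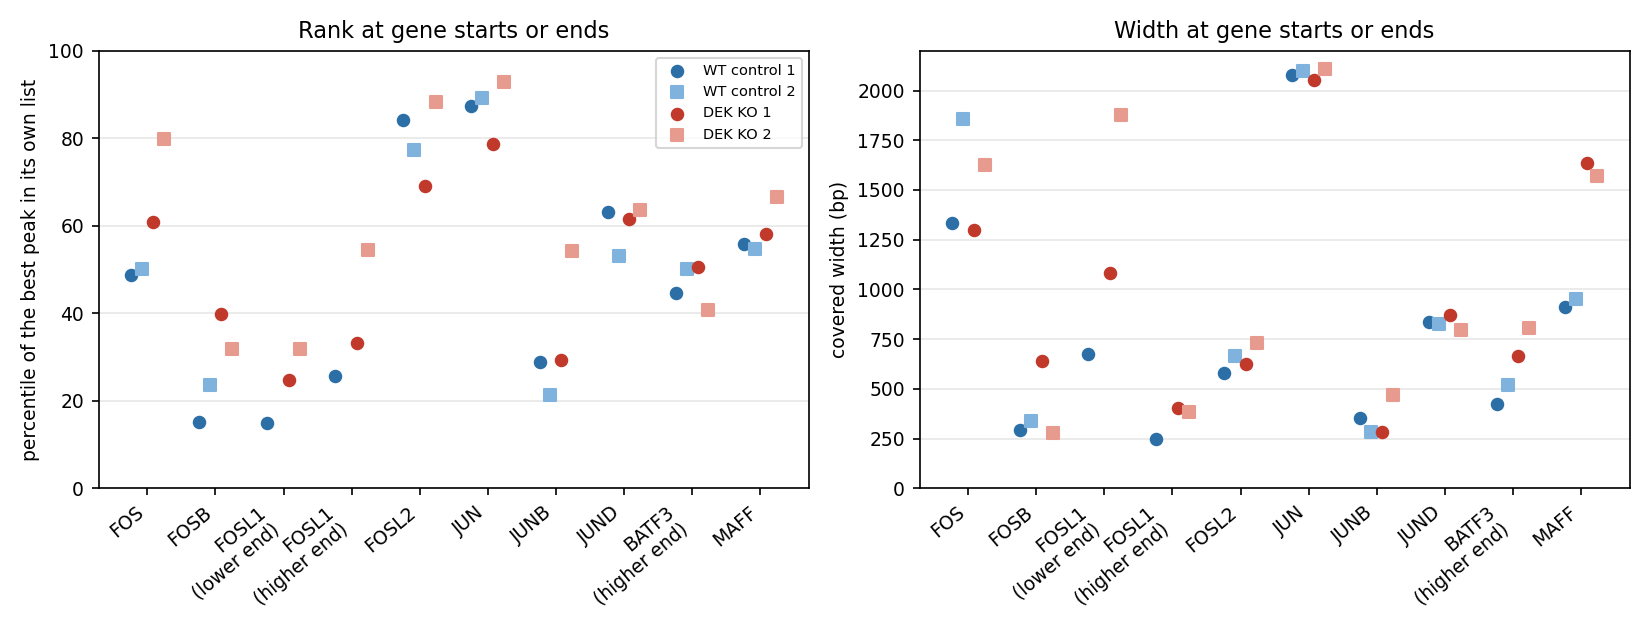
Left, percentile of the best peak of each start or gene-end region within its own list; right, bases covered by its peaks. Each point is 1 library, and missing points are regions not called in it. Among regions called in all 4 lists, the genotypes do not overlap on the left at FOS, FOSB, JUNB and MAFF (48.8 and 50.1 against 60.8 and 79.8 at FOS), and on the right at the BATF3 end and at MAFF (912 and 950 against 1636 and 1571 bp).

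FOS encodes the founding partner of JUN and is transcribed briefly after growth factor signals. The gene (gene ID 2353) spans 75278828 to 75282230 of chromosome 14. Its start region (75277077 to 75279115) stood at percentiles 48.8 (replicate 1) and 50.1 (replicate 2) in the WT controls, against 60.8 (replicate 1) and 79.8 (replicate 2) in DEK KO. The groups did not overlap, and DEK KO replicate 2 stood highest. The difference of the means was 20.9 percentile points, a size reached by 1.71% of shared start regions. This limit was the FOS value itself, the largest among the members' start regions, and was taken after seeing it. The share is therefore no test. In WT control replicate 1 the best peak of this region lay upstream, with its summit at -1539 bp from the start. Taking only the peak that covers the start, the percentiles were 36.3 and 50.1 against 60.8 and 79.8, or 43.2 ± 9.78 against 70.3 ± 13.4 (SD, n = 2, exact permutation p = 0.333). Their fold enrichments, as the authors' peak caller gave them, were 3.77 and 4.23 against 5.40 and 8.04. The summits of these peaks lay at -74 and -57 bp from the start in the WT controls, and at -280 and -262 bp in DEK KO.

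Around the FOS start the lists also split the DNA differently. WT control replicate 1 and both DEK KO libraries had a separate upstream peak, at most from -1751 to -791 bp. In WT control replicate 2 a single peak of 1856 bp ran from -1665 to 190 bp. The covered width was 1334 and 1856 bp in the WT controls and 1300 and 1627 bp in DEK KO, and overlapped between groups. No other protein-coding gene lay in the FOS window, which held 13 regions, the fewest of the 10 genes.

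MAFF encodes a small MAF protein, which lacks an activation domain and pairs with other leucine zipper factors. The gene (gene ID 23764) spans 38201994 to 38216511 of chromosome 22. Its start region (38201684 to 38203472) was wider in both DEK KO lists, covering 1636 and 1571 bp against 912 and 950 bp in the WT controls. The mean was 1604 ± 46.0 bp against 931 ± 26.9 bp (SD, n = 2), a ratio of 1.72 that 0.912% of shared start regions reached. That limit was the MAFF ratio itself, the largest among the members' start regions, and was taken after seeing it. The share is therefore no test. Over shared start regions 15.4% were wider in both DEK KO lists and 24.2% narrower, and of the 7 members 1 was wider and 0 narrower. The WT control lists had 2 peaks there, 1 over the upstream start and 1 with its summit between it and the second listed start, which lies 1026 bp downstream. The gap between them was 233 bp in replicate 1 and 420 bp in replicate 2. Covered width leaves out this gap, so part of the ratio of 1.72 comes from 2 peaks being called in place of 1. The first base lay at -190 and -310 bp from the upstream start in the WT controls, and at -174 and -92 bp in DEK KO. Each DEK KO list had 1 peak that covered both starts, ending 1461 and 1478 bp after the upstream start against 954 and 1059 bp in the WT controls. The percentile of the best peak differed less, with 55.9 and 54.7 against 58.2 and 66.6, and overlapped in lists of equal length.

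**Figure D2:**
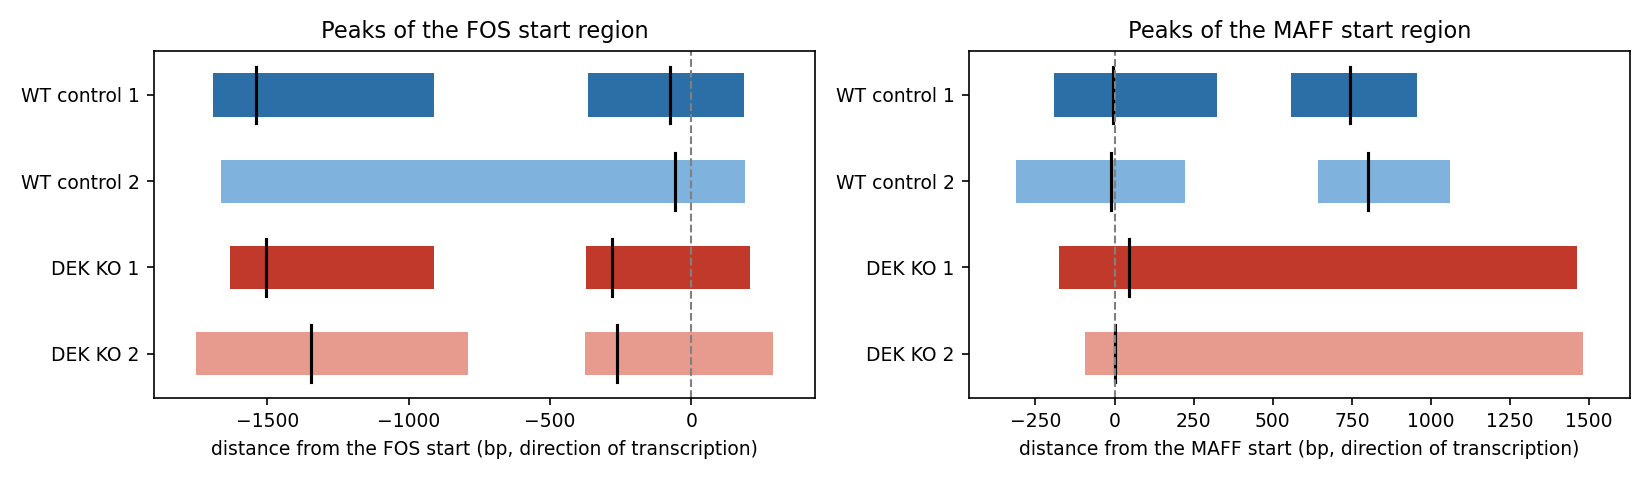
Peaks of the start regions of FOS (left) and MAFF (right) in each library, drawn by distance in bp from the start (dashed line; for MAFF the upstream start); black ticks are summits. At MAFF each WT control list has 2 peaks and each DEK KO list 1 continuous peak; at FOS the summits over the start lie at -74 and -57 bp in the WT controls and at -280 and -262 bp in DEK KO.

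FOSB, a FOS paralog with a truncated splice form (gene ID 2354, 45467996 to 45475179), had a weak start region (chromosome 19, 45467681 to 45468318). Its percentiles were 15.2 and 23.6 in the WT controls and 39.9 and 31.9 in DEK KO, with fold enrichments from 2.46 to 3.15 over the 4 lists. JUNB, a JUN paralog that often restrains JUN activity (gene ID 3726, 12791486 to 12793315), had percentiles of 28.9 and 21.4 against 29.2 and 54.2 at its start (chromosome 19, 12791306 to 12791774). WT control replicate 1 and DEK KO replicate 1 were nearly level there, and DEK KO replicate 2 stood above both.

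JUN, JUND and FOSL2 showed no separation at their starts. JUN encodes the main partner of the FOS proteins and activates its own promoter (gene ID 3725, 58780791 to 58784047). Its start region (chromosome 1, 58783747 to 58785886) covered 2080, 2099, 2051 and 2107 bp in WT control 1, WT control 2, DEK KO 1 and DEK KO 2, all upstream of the gene but for the first 300 bp at most. Its percentiles were 87.3 and 89.2 in the WT controls and 78.6 and 92.8 in DEK KO, so that the DEK KO values lay on both sides of the controls. JUND, the JUN protein most often present in resting cells (gene ID 3727, 18279694 to 18281622), had 63.1 and 53.2 against 61.5 and 63.6 (chromosome 19, 18281593 to 18282484). FOSL2, which encodes FRA-2 (gene ID 2355, 28392858 to 28417317), had 84.2 and 77.3 against 69.1 and 88.3 (chromosome 2, 28392267 to 28392995). At JUN and FOSL2, DEK KO replicate 1 was the lowest library and DEK KO replicate 2 the highest.

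ATF3, a stress-induced repressor and activator (gene ID 467, 212565407 to 212620777), had no region at either listed start. The nearest region lay 1184 bp from the upstream start and 771 bp from the second. The latter region (chromosome 1, 212613612 to 212614247), which lies inside ATF3, was listed in the 2 WT controls alone, at percentiles of 22.5 and 24.5. Between the 2 starts, another region inside ATF3 (212608108 to 212609576) was called in all 4 lists. Its percentiles were 97.4 and 96.7 in the WT controls and 98.2 and 95.4 in DEK KO. Starts of ATF3 other than those listed were not examined, so the gene is not shown to lack an open start. For FOSL1, which encodes FRA-1 (gene ID 8061, 65892049 to 65900545), and BATF3, known from dendritic cells (gene ID 55509, 212686417 to 212699840), gene ends were used in place of starts, within 1 kb. The FOSL1 end of higher coordinate (chromosome 11, 65900343 to 65900793) had percentiles of 25.7 in WT control replicate 1 and 33.1 and 54.6 in DEK KO, and was not called in WT control replicate 2. The BATF3 end of higher coordinate (chromosome 1, 212698924 to 212699762) was called in all 4 lists, with 44.7 and 50.1 against 50.6 and 40.7. It covered 422 and 520 bp in the WT controls and 667 and 806 bp in DEK KO, so that its widths did not overlap while its percentiles did.

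The region of highest mean percentile in each window lay away from the member's start. JUN had the highest, 24.6 kb from the gene (chromosome 1, 58755055 to 58756154), with percentiles of 99.4 and 98.9 in the WT controls and 99.5 and 99.7 in DEK KO. ATF3 had one inside the gene (chromosome 1, 212595675 to 212597153), with 99.5 and 99.5 against 98.7 and 94.9, which is also the strongest region in the BATF3 window because the windows of these neighbours share 16 regions. FOSL2 had one inside the gene (chromosome 2, 28408407 to 28409790), with 96.6 and 97.8 against 90.5 and 95.3. The region 19.1 kb from FOS (chromosome 14, 75258791 to 75259708) had 94.2 and 95.6 against 91.6 and 89.8. At ATF3, FOSL2 and FOS the strongest region ranked lower in both DEK KO lists.

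The strongest region ranked higher in both DEK KO lists for 5 other members. It lay 11.5 kb from FOSB (chromosome 19, 45455566 to 45456537), with percentiles of 86.6 and 89.0 against 95.0 and 98.5. It lay 1.44 kb from MAFF inside TMEM184B (chromosome 22, 38217952 to 38219251), with 81.8 and 77.0 against 88.0 and 94.5. In the gene-dense FOSL1 window it lay 88.4 kb from the gene, with 94.1 and 92.6 against 97.8 and 97.6. In the JUNB window it was the start of a neighbour, GET3, a factor for the insertion of membrane proteins, with 96.6 and 94.7 against 98.6 and 98.7. The fifth was the JUN region above, with all values between 98.9 and 99.7 and a difference of the means of 0.447 points. In the JUND window the strongest region was the start of RAB3A, a regulator of vesicle release, with 96.1 and 94.2 against 96.3 and 95.5, and the groups overlapped. How often the strongest region of a window ranked higher or lower was not computed over all protein-coding genes. The counts in both directions therefore have no matching background.

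Of the 213 regions, 126 (59.2%) were called in all 4 lists, against 45.3% of all merged regions and 47.0% of regions within 100 kb of any protein-coding gene. Of the 213, 7 lay at a member's start, 28 at the start of another protein-coding gene and 95 outside protein-coding gene spans. The share called in all 4 lists ran from 46.2% at FOS (6 of 13) to 80.0% at FOSB (16 of 20). ATF3 had 20 of 27 and MAFF 14 of 23. JUNB, with 14 other protein-coding genes in its window, had the most regions, 17 of 29.

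**Figure D3:**
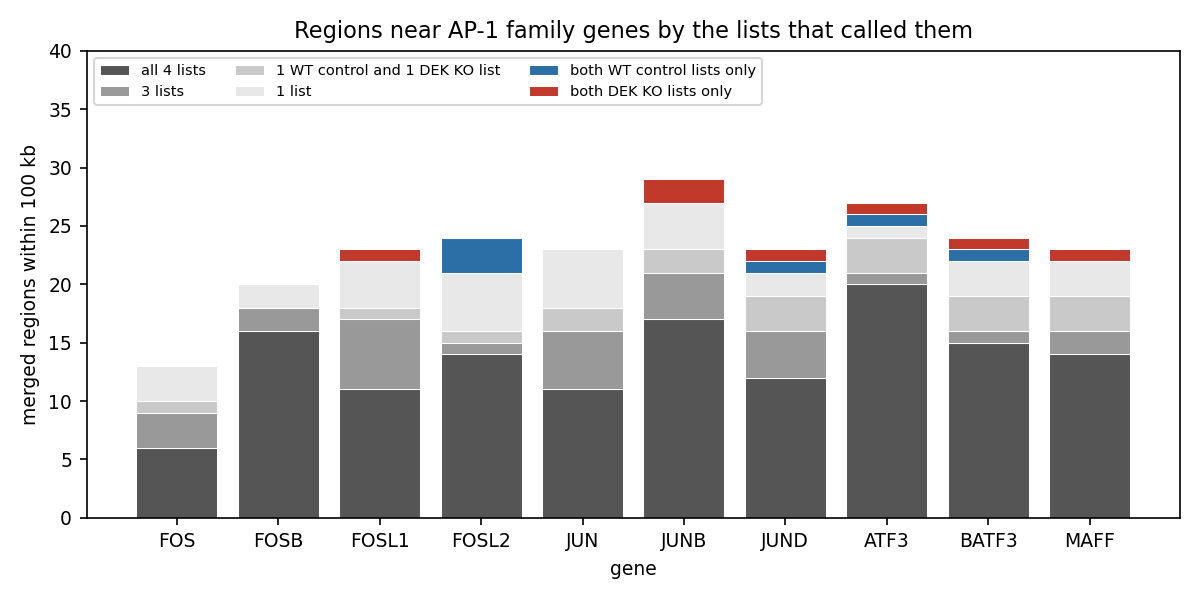
Number of merged regions within 100 kb of each gene, stacked by the lists that called them. FOSL2 holds 3 regions called only in both WT control lists and JUNB 2 called only in both DEK KO lists; FOS, FOSB and JUN hold neither kind. The ATF3 and BATF3 bars share 16 regions.

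Per library, 166 and 162 peaks lay near members in the WT controls and 178 and 181 in DEK KO, or 164.0 ± 2.83 against 179.5 ± 2.12 (SD, n = 2). The ratio was 1.09, against 1.12 for the whole lists, and the exact permutation p was 0.333 for both, the smallest that 2 against 2 libraries allow. In lists of equal length the difference of 15.5 peaks became 5. Covered length was 120.8 ± 3.12 kb against 131.3 ± 1.83 kb (exact permutation p = 0.333). More peaks in both DEK KO lists than in both WT control lists were found at FOSB, JUNB, JUND and MAFF, and fewer at FOSL2. Over all protein-coding genes 32.8% had more and 4.44% had fewer. In lists of equal length FOSB and JUNB kept more peaks, and FOSL2 and BATF3 had fewer.

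FOSL2 was the only member with fewer peaks in both DEK KO lists, 16 and 16 against 21 and 20 in the WT controls. It was also the only member with 3 regions found in the 2 WT control lists alone, with no region of the opposite kind. At least 3 of the first kind with none of the second were found near 0.501% of protein-coding genes. These limits were taken from the FOSL2 counts after seeing them. The share was computed for the 4 full lists only. All 3 were weak. The first (chromosome 2, 28366599 to 28367062), 25.8 kb upstream, had percentiles of 1.29 and 13.1. The second (28396498 to 28396923), inside the gene, had 19.0 and 8.63, and the third (28435647 to 28436318), 18.3 kb beyond the gene, had 11.2 and 20.9. With −log10 q of at least 5 the window held 15 and 16 peaks against 15 and 14, and 1 of these regions was left. Without WT control replicate 1 or 2 there were 5 such regions, and without DEK KO replicate 1 or 2 there were 3 and 4, with 1 of the opposite kind in the last case. The 14 FOSL2 regions shared by all lists were split between 3 that ranked higher in DEK KO, 2 lower and 9 overlapping.

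**Figure D4:**
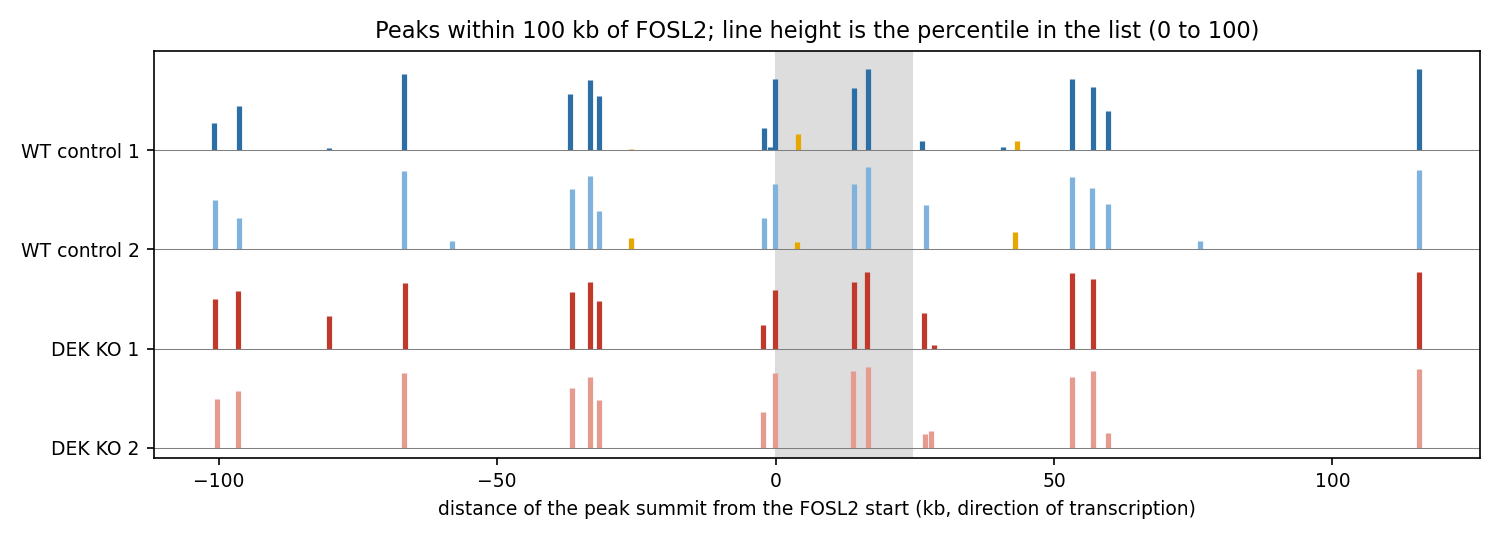
Peaks within 100 kb of FOSL2 in each library by the distance of their summit from the FOSL2 start in kb; line height is the percentile in the list, the grey band is the gene, and yellow lines are the 3 regions called only in both WT control lists. These stand at percentiles from 1.29 to 20.9.

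In all, 6 of the 213 regions were DEK KO-only, meaning called in both DEK KO lists and no other (2.82%, against 6.26% of all regions and 5.97% of those within 100 kb of a protein-coding gene). WT-only regions, defined likewise, numbered 5 (2.35%, against 2.57% and 2.52%). With −log10 q of at least 5, 11 of 183 were DEK KO-only (6.01%, against 6.54% of all regions) and 5 were WT-only (2.73%, against 3.47%), so that the members' share of DEK KO-only regions lay near the background. In lists of equal length 6 of 205 were DEK KO-only (2.93%, against 5.16%) and 7 WT-only (3.41%, against 3.96%). Leaving out a library loosens the definition for all regions alike. With WT control replicate 1 left out, 16 of 210 were DEK KO-only (7.62%, against 9.86%) and 9 WT-only (4.29%, against 9.06%). With WT control replicate 2 left out, 16 of 212 were DEK KO-only (7.55%, against 9.61%) and 8 WT-only (3.77%, against 7.96%). With DEK KO replicate 1 left out, 17 of 201 were DEK KO-only (8.46%, against 17.2%) and 8 WT-only (3.98%, against 6.68%). With DEK KO replicate 2 left out, 19 of 203 were DEK KO-only (9.36%, against 17.3%) and 10 WT-only (4.93%, against 4.73%). The members' share of DEK KO-only regions thus lay below the background in each of these settings, by an amount that depended on the setting. Their WT-only share lay below it except with DEK KO replicate 2 left out. The settings use the same libraries, and the differences were not tested.

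The DEK KO-only regions had percentiles from 21.5 to 61.1 and the WT-only ones from 1.29 to 24.5. None of the DEK KO-only regions lay at a listed start or inside a member. The strongest lay 28.2 kb from JUNB, near RTBDN (chromosome 19, 12821512 to 12822196), with percentiles of 44.0 and 61.1 and folds of 6.13 and 9.07. A second in the JUNB window lay in MAST1 (chromosome 19, 12872789 to 12873224), with 33.3 and 31.9. In the JUND window one lay in PDE4C, a phosphodiesterase gene (chromosome 19, 18214538 to 18215268), with 48.3 and 36.4. The others lay in PLA2G6, a phospholipase gene, 21.4 kb from MAFF (chromosome 22, 38180129 to 38180587, 41.0 and 43.4), 12.5 kb from BATF3 (chromosome 1, 212712311 to 212713066, 21.6 and 57.8), and in SART1, a splicing factor gene, 73.0 kb from FOSL1 (chromosome 11, 65973564 to 65974103, 24.9 and 21.5). Besides those at FOSL2 and ATF3, the remaining WT-only region lay 58.2 kb from JUND by PGPEP1 (chromosome 19, 18339773 to 18340355), at 2.38 and 4.62, near the calling limit. FOS, FOSB and JUN had no region of either kind, as was the case for 31.2% of protein-coding genes; with −log10 q of at least 5, JUN had 3 DEK KO-only and 1 WT-only, FOSB 1 DEK KO-only and FOS 1 WT-only, and in lists of equal length FOS had 1 WT-only.

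Among the 126 shared regions, 42 (33.3%) ranked higher in both DEK KO lists and 18 (14.3%) lower, against 31.1% and 19.2% of all 62686 shared regions. The median difference of mean percentiles was 1.62 points, against 1.33 over all shared regions. In lists of equal length the split was 32 against 27 of 124 (25.8% and 21.8%, against 22.5% and 28.0% over all regions). By fold enrichment it was 29 against 27 of 126 (23.0% and 21.4%, against 25.7% and 19.3%), so that the members lay on the other side of the background in both directions. Wider in both DEK KO lists were 31 (24.6%) and narrower 16 (12.7%), whereas of all shared regions 18.0% were wider and 23.0% narrower. In lists of equal length 31 of 124 were wider (25.0%, against 18.3% of all shared regions) and 16 narrower (12.9%, against 22.7%). That setting drops the weakest peaks and changes no width of the others, so it hardly checks the widths. With WT control replicate 1 left out, 60 of 135 ranked higher (44.4%, against 42.9% of all shared regions) and 36 lower (26.7%, against 29.8%), and 52 were wider (38.5%, against 31.1%) and 45 narrower (33.3%, against 38.9%). With WT control replicate 2 left out, 70 of 137 ranked higher (51.1%, against 45.0%) and 29 lower (21.2%, against 27.7%), and 54 were wider (39.4%, against 34.3%) and 31 narrower (22.6%, against 34.4%). With DEK KO replicate 1 left out, 66 of 132 ranked higher (against 43.5%) and 35 lower (26.5%, against 34.9%), and 45 were wider (34.1%, against 29.0%) and 44 narrower (33.3%, against 43.3%). With DEK KO replicate 2 left out, 60 of 129 ranked higher (46.5%, against 45.7%) and 39 lower (30.2%, against 31.5%), and 55 were wider (42.6%, against 35.5%) and 35 narrower (27.1%, against 35.2%).

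**Figure D5:**
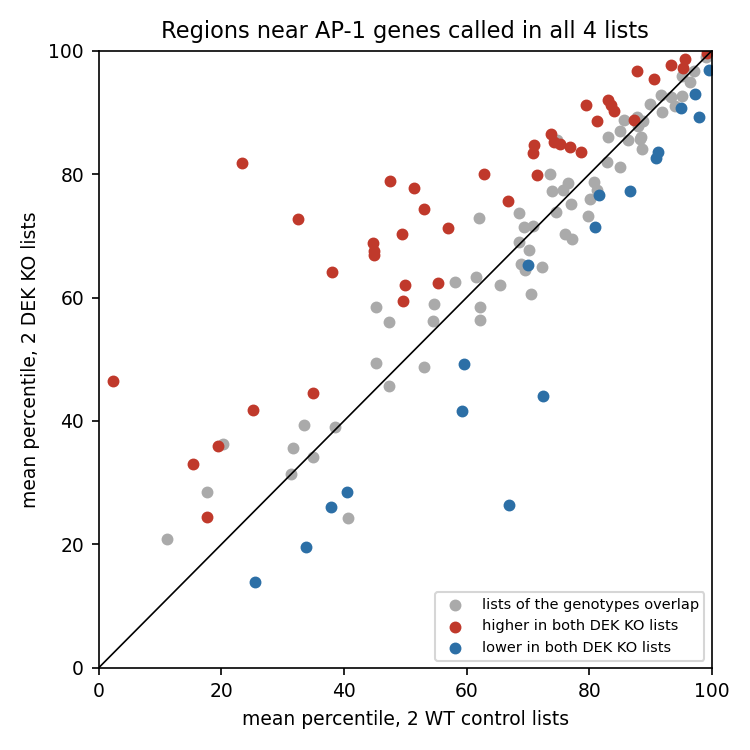
Mean percentile in the 2 DEK KO lists against that in the 2 WT control lists for the 126 regions near members called in all 4 lists; the line marks equality. The 42 red points rank higher in both DEK KO lists and the 18 blue points lower; the farthest from the line are a MAFF region (23.5 against 81.8) above it and a JUNB region (67.0 against 26.4) below it.

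The ranks of the members' shared regions were set beside those of their chromosomes. At MAFF 8 of 14 shared regions ranked higher in DEK KO (57.1%) and 1 lower, on a chromosome where 51.1% ranked higher and 6.62% lower. The 3 members on chromosome 19 together had 15 of 45 higher (33.3%) and 2 lower, against 38.1% and 9.97% of that chromosome. The ATF3 and BATF3 windows together had 4 of 25 higher and 10 lower, and JUN 3 of 11 higher and 1 lower, on chromosome 1, where 21.5% ranked higher and 28.1% lower. FOSL1 had 7 of 11 higher (63.6%) and 0 lower, against 31.3% and 17.8% on chromosome 11. FOSL2 had 3 of 14 higher and 2 lower, against 31.1% and 20.3% on chromosome 2, and FOS had 2 of 6 in each direction, against 28.6% and 16.6% on chromosome 14. Whether the chromosome sets the members' values was not tested.

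Among regions called in all 4 lists whose genotypes did not overlap, those with the largest differences of rank lay outside the genes. A region in CSNK1E, a kinase gene, 81.9 kb from MAFF (chromosome 22, 38298452 to 38299198), had percentiles of 9.35 and 37.6 in the WT controls and 83.2 and 80.3 in DEK KO. A region between genes, 15.5 kb from JUN (chromosome 1, 58763939 to 58765246), stood near the calling limit in the WT controls, at 0.750 and 3.92, and at 37.4 and 55.6 in DEK KO. MAFF had another 2, at 22.4 kb in TMEM184B (37.8 and 27.2 against 63.6 and 82.0) and at 62.3 kb (52.0 and 43.1 against 81.7 and 76.0). They were followed by a region 11.7 kb from JUND (chromosome 19, 18293367 to 18294252; 51.1 and 51.9 against 80.0 and 75.7) and one 56.3 kb from FOS (chromosome 14, 75221939 to 75222569; 37.2 and 38.7 against 61.3 and 66.9). All 6, picked for their rank, were also wider in both DEK KO lists, as were 18.0% of all shared regions. The share of wider regions among all regions that ranked higher was not computed. The widths are therefore no separate evidence.

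In the opposite direction, the largest difference under the same limits was in GET3, 45.8 kb from JUNB (chromosome 19, 12744887 to 12745671), with percentiles of 62.1 and 71.9 in the WT controls and 28.8 and 23.9 in DEK KO. The same window held the GET3 start that ranked higher, so neighbouring regions did not share a direction. The next 3 lay near ATF3. One lay 39.0 kb away (chromosome 1, 212525432 to 212526393), with 70.2 and 74.8 against 63.8 and 24.4, and one 5.98 kb away (212558788 to 212559423), with 58.4 and 60.0 against 32.8 and 50.4. The third, 14.4 kb away on the side of BATF3 (212635164 to 212635603), had 36.2 and 31.5 against 18.3 and 20.9. The last 2 lay 82.6 kb from BATF3 in NSL1, a kinetochore gene, and 66.6 kb from MAFF, with differences of -12.1 and -11.9 points.

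Other genes of the pathway were described by the same 100 kb windows. Of all protein-coding genes, 46.5% had more DEK KO-only than WT-only regions and 14.0% fewer. Of all merged regions, 6.26% were DEK KO-only and 2.57% WT-only. Within 100 kb of a protein-coding gene these shares were 5.97% and 2.52%, the background for the shares of all the lists below. Other leucine zipper partners had 15 DEK KO-only and 11 WT-only regions of 410 (3.66% and 2.68%), with 7 of 19 genes holding more of the first and 3 more of the second. Among them ATF7 had 2 of each, BACH1 had 1 of each, and MAF had 0 and 2. Upstream regulators had 22 and 5 of 447 (4.92% and 1.12%), with 11 and 3 of 24 genes. MAPK14, the p38 alpha gene, had 3 DEK KO-only regions and 0 of the other kind, and DUSP1, a phosphatase of MAP kinases, had 1 and 1. MAPK3, the ERK1 gene, had 2 and 0, and its start region was called in both DEK KO lists only, at percentiles of 39.2 and 40.1.

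Other immediate early genes had 18 DEK KO-only and 7 WT-only regions of 361 (4.99% and 1.94%), with 11 and 3 of 19 genes. IER2 and ARC had 3 and 0, NR4A1, a nuclear receptor gene, had 2 and 1, and IER3 had 0 and 2. AP-1 targets had 25 and 7 of 481 (5.20% and 1.46%), with 16 and 3 of 25 genes. CD44, a hyaluronan receptor, had 4 and 0. AREG and EREG, which encode EGF receptor ligands and are neighbours that share these regions, had 2 and 1. The 10 members had 3 genes with more DEK KO-only regions, 1 with more WT-only regions and 6 with equal numbers.

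The genes whose start regions had percentiles nearest to the mean of the 7 members with one (54.8 and 52.8 in the WT controls, 56.8 and 68.2 in DEK KO) were ATP1B1, a sodium pump subunit, CREB3L1 and PCDHB3. Their Euclidean distances over the 4 libraries were 3.24, 4.38 and 4.38 percentile points.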

How the data were processed

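Chromatin accessibility in 786-O cells was represented by 4 deposited narrowPeak lists, 1 per library, so the authors called peaks per library and not on pooled samples. MACS2 2.2.7.1, Bowtie2 2.2.5 and cutadapt 1.18 are among the tools in the submitters' processing notes, with builds GRCh38 and hg38. Settings and any shift for the transposase are not given in the sources used here, and the extraction text in the labels describes RNA. The deposited score column holds whole numbers and was not used further. In the peak caller's format, the deposited fold column is the ratio of pileup to background at the summit, and the p and q of each peak were deposited as −log10 values. All belong to 1 list each and served only to rank or filter within it. The lowest deposited −log10 q was 1.30 to 1.32, a q-value limit of 0.05.

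Peaks outside chromosomes 1 to 22 and X were left out. Gene spans came from RefSeq GRCh38.p14 (19974 protein-coding genes), starts and sequences from a RefSeq promoter table of the same build. All genes of the lists matched. Merging and ranking used Python 3.11.15, numpy 2.4.6 and pandas 2.3.3, and were tested on simulated lists. The members and gene lists were chosen with earlier results of these data known. The text names the members, each member's start and strongest region, all one-genotype regions, the 6 largest rank differences per direction, up to 4 genes per list, of which some are not reported here, and the 3 nearest profiles. Alternatives were −log10 q of at least 5, lists of equal length (89563 peaks), overlap of at least 50% of the shorter peak, rank by fold, and each library left out. Same-numbered libraries did not deviate together (r = 0.0124 across 62686 shared regions, which are not replicates).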

Additional observations from a re-analysis of the deposited data

How the results depend on the processing

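The number of DEK KO-only regions near members was 6 of 213 (2.82%, against 6.26% of all regions), and 11 of 183 with −log10 q of at least 5 (6.01%, against 6.54%), where the shortfall against all regions was all but gone; the cause was not tested. Leaving out each library in turn, where fewer lists have to agree, gave 16 to 19 DEK KO-only and 8 to 10 WT-only regions, 60 to 70 shared regions ranked higher in DEK KO, 29 to 39 lower, 45 to 55 wider and 31 to 45 narrower, beside which the shares of all regions also moved (DEK KO-only from 9.61% to 17.3%, ranked higher from 42.9% to 45.7%, narrower from 34.4% to 43.3%). The excess of peaks per library stayed positive, from 13.5 to 17.5, and that of covered length from 8.32 to 12.7 kb; in lists of equal length they were 5 peaks and 7.03 kb. An overlap of at least 50% of the shorter peak left the counts of DEK KO-only, WT-only, higher, lower, wider and narrower regions at 6, 5, 42, 18, 31 and 16, among 218 regions of which 125 were shared. In a replicate block, where labels are exchanged only between libraries of the same number, the differences of 15.5 peaks and 10.5 kb had an exact permutation p of 0.5, the smallest possible. The labels do not say that a number marks a shared batch. The count of 4 start regions ranked higher in DEK KO was 2 in lists of equal length, 2 by fold and 1 with the stricter q. The share over all start regions was not computed for these settings. The lists hold no read counts, so the depth behind weak regions is unknown, and a region missing from a list is not shown to be closed there.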
